A study of Homo sapiens with 4 samples.

Results

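The genes of the MHC class I pathway were examined in Kasumi-1, a human leukemia line (acute myeloid leukemia, AML) with the t(8;21) translocation, with and without knockdown of ANP32B by short hairpin RNA. The set held 9 genes, chosen by name for their part in class I presentation: the heavy chains HLA-B, HLA-C, HLA-E and HLA-F, the light chain B2M, the peptide transporter subunits TAP1 and TAP2, the loading factor TAPBP and the transcriptional activator NLRC5. Values were found for 8 of them among the 18567 genes of the table, and HLA-F was not analysed here. RNA was sequenced in 4 samples, 2 in the NC group and 2 in the sh-ANP32B group. By the labels the NC samples are Kasumi-1 cells that received neither hairpin nor treatment, whereas a control hairpin is described in the methods, with selection with puromycin, so any effect of infection and selection cannot be told apart from that of the knockdown. Which of the hairpins of the study the sh-ANP32B samples carried is not given in the labels, nor do these say that replicates came from separate cultures, so p-values measure the spread between these samples. The methods state in general that experiments were repeated independently, without naming these sequenced samples.

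MHC class I molecules show peptides from inside the cell to CD8 T cells and natural killer cells. Proteasomes cut proteins to peptides, the TAP1 and TAP2 transporter carries these into the endoplasmic reticulum, tapasin (TAPBP) holds an empty heavy chain and B2M next to the transporter until a peptide binds, and the loaded complex moves to the cell surface. Transcription of most of these genes is raised by interferons and, in lymphoid and myeloid cells, by NLRC5, which is recruited to their promoters by a complex of RFX, NF-Y and CREB family factors.

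Values are in TPM, a unit that scales the reads of a gene to its length and to its sample as a whole, and adjusted p-values are those of limma. ANP32B, the target, measured 384 and 392 TPM without the knockdown against 51.8 and 41.2 TPM with it, a log2 difference of -3.04 (SE 0.15, adjusted p 0.00516). Per sample, 15973 to 16540 genes were at 1 TPM or more, and the mitochondrial share was lower with knockdown, at 11.4% and 8.43% against 12.9% and 13.1%. TPM holds no sequencing depth, so the depth of the samples is unknown and no counting interval could be given. The sh-ANP32B replicates differed along the GC content of transcripts (Spearman rho 0.577 across 15427 genes, which are not independent, against -0.21 in NC). Of 5 marker genes of Kasumi-1, RUNX1T1, the translocation partner, was at 15.6 to 31.2 TPM, the myeloid antigen CD33 at 58.5 to 70.1 TPM and the receptor KIT at 1.55 to 3.41 TPM, while CD34 and MPO were not analysed here.

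No class I gene passed the threshold between the groups, although HLA-E and TAPBP were about 1.5 times as high in sh-ANP32B as in NC. Limma, applied to log2(TPM + 1) across 16817 genes, gave an adjusted p under 0.05 to 0 of the 8 members, against 3.32% of all genes tested, 2.14% higher and 1.18% lower. Of all genes past the threshold 360 of 559 were higher, but 230 of 518 after median-of-ratios scaling, 271 of 508 after upper-quartile scaling, 244 of 478 after quantile normalization and 1161 of 2534 after GC correction. In bulk RNA, fewer cells of a kind and less RNA per cell cannot be told apart. At an unadjusted p under 0.05 there were 2 members, HLA-E and TAPBP, against 23.8% of all genes. NC and sh-ANP32B were separate, with no overlap, in 5 of the 8, where this held for 54.6% of all genes. Of these 5, HLA-E, B2M, TAPBP and NLRC5 lay higher in sh-ANP32B, a pattern held by 33.2% of all genes, and TAP2 lay lower, a pattern held by 21.4%. The median log2 fold change of the members was 0.19, beside 0.08 for all genes tested. It was 0.093 after median-of-ratios scaling, 0.096 after GC correction and 0.14 without mitochondrial genes, beside 0.0010, -0.0081 and 0.041 for all genes. The smallest two-sided p of an exact permutation test of 2 against 2 is 0.333, so the test rests on the spread that limma shares between genes. The count of members past the threshold depended on single libraries, as did the count over all genes. With 1 sample left out, the median log2 fold change of the members was 0.20 to 0.28, beside 0.068 to 0.096 for all genes.

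**Figure D1:**
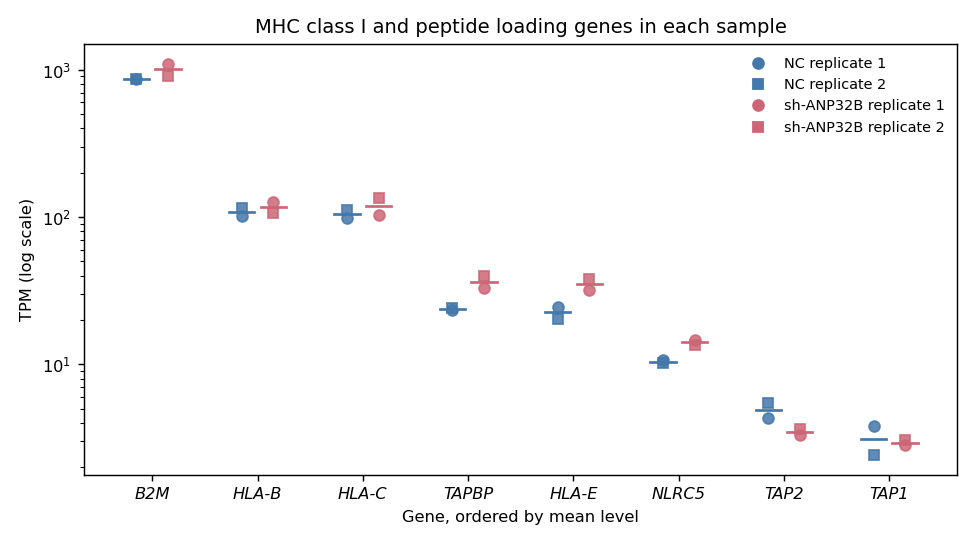
TPM of the 8 class I genes with values in each of the 4 samples, on a log axis. Circles are replicate 1 and squares replicate 2, blue for NC and red for sh-ANP32B, and bars mark the mean of the 2 replicates. The samples lie from 2.41 TPM for TAP1 to 1101 TPM for B2M, and the groups separate for TAPBP, HLA-E, NLRC5, B2M and TAP2.

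The levels spanned more than 2 orders of magnitude. B2M was highest, with a mean over the 4 samples of 937 TPM, followed by HLA-B and HLA-C at 112.4 and 111.8 TPM. TAPBP and HLA-E had means of 30.1 and 28.7 TPM, NLRC5 12.3 TPM, and TAP2 and TAP1 4.17 and 3.03 TPM. HLA-B and HLA-C overlapped in range, as did TAPBP and HLA-E, and TAP2 and TAP1, so the order within these pairs does not exceed the spread between samples. All other neighbours in the order had ranges that did not overlap.

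The classical heavy chains HLA-B and HLA-C, which present most peptides to CD8 T cells, had values that overlapped between the groups. HLA-B (ENSG00000234745), on the minus strand of chromosome 6 from 31353872 to 31367067 (hg38), had 102.1 and 114.3 TPM in NC against 125.9 and 107.1 TPM with knockdown. The groups overlapped, and the log2 fold change was 0.10 (SE 0.145, 95% interval -0.24 to 0.45, adjusted p 0.721). It was 0.010 after median-of-ratios scaling and 0.0062 after GC correction for HLA-B, and -0.013 without sh-ANP32B replicate 1. HLA-C (ENSG00000204525), on the same strand from 31268749 to 31272130, had 98.3 and 111.7 TPM in NC against 103.5 and 133.9 TPM with knockdown. Its groups overlapped as well, as sh-ANP32B replicate 1 lay between the NC replicates. The log2 fold change of HLA-C was 0.17 (SE 0.167, 95% interval -0.23 to 0.56, adjusted p 0.599). Its sign was not stable: the log2 fold change was -0.07 after GC correction, 0.35 without sh-ANP32B replicate 1 (adjusted p 0.0439) and -0.02 without replicate 2. HLA-C had the highest GC content of the members, 62.7% in its longest transcript, and the widest gap between the sh-ANP32B replicates, with replicate 2 higher by 0.37 on the log2 scale. B2M, lowest in GC content at 38.9%, had a gap of -0.27 in the opposite direction. Between these, in order of falling GC content, NLRC5 had a gap of -0.10, TAP1 0.09, TAPBP 0.26 and HLA-E 0.26. HLA-B had -0.23 and TAP2 0.10, so the gaps did not follow GC content from member to member. The part of GC content in these gaps was not tested.

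HLA-E, a heavy chain with little variation that presents leader peptides of other class I chains to the NKG2A receptor of natural killer cells, had the highest fold change of the 8. It (ENSG00000204592) lies on the plus strand of chromosome 6 from 30489509 to 30494194. Its level was 24.6 and 20.4 TPM in NC against 31.7 and 38.2 TPM with knockdown. Both sh-ANP32B samples were above both NC samples. NC averaged 22.5 ± 2.92 TPM and sh-ANP32B 35 ± 4.57 TPM (SD, n = 2 each), a ratio of 1.55. The log2 fold change was 0.61 (SE 0.179, 95% interval 0.19 to 1.04). The adjusted p was 0.107, and it ranged from 0.0493 after GC correction to 0.178 over the alternatives that kept all 4 samples. Without sh-ANP32B replicate 1 it was 0.00913 and without NC replicate 1 or 2 at most 0.659.

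Heavy chain genes are related in sequence, and reads can be assigned to more than one of them. The longest protein-coding transcript of each was cut into all windows of 50 and of 100 bases, and windows found unchanged in an annotated transcript of another class I heavy chain gene were counted. At 50 bases the share was 1.27% for HLA-B, 6.71% for HLA-C and 4.76% for HLA-E, and at 100 bases it was 0% for HLA-B, 0.275% for HLA-C and 0.612% for HLA-E. These shares are for the reference alleles. The alleles of Kasumi-1 can differ from the reference, the read length is not given in the sources used here, and the values of single heavy chains are uncertain for that reason. The sum of HLA-B, HLA-C and HLA-E, which is less exposed to how reads were divided, was 225 and 246 TPM in NC against 261 and 279 TPM with knockdown. The groups did not overlap, and the ratio of the means was 1.15, or 1.07 after median-of-ratios scaling. Of this sum HLA-E made up 10.9% and 8.29% in NC and 12.2% and 13.7% in sh-ANP32B, and HLA-C 43.7% and 45.3% in NC and 39.6% and 48% in sh-ANP32B.

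B2M, the light chain that all class I heavy chains need to reach the surface, was the most abundant transcript of the set. The gene (ENSG00000166710) lies on chromosome 15 from 44711358 to 44718851. It had 866 and 870 TPM in NC against 1101 and 910 TPM with knockdown, so the NC replicates were close together and the sh-ANP32B replicates were not. The log2 fold change was 0.21 (SE 0.138, 95% interval -0.12 to 0.54, adjusted p 0.418). It was 0.34 without sh-ANP32B replicate 2 (adjusted p 0.0117) and 0.07 without replicate 1 (adjusted p 0.547), and 0.11 after median-of-ratios scaling. The ratio of B2M to the summed heavy chains HLA-B, HLA-C and HLA-E was 3.85 and 3.53 in NC and 4.22 and 3.26 in sh-ANP32B. The NC values of this ratio lay between those of sh-ANP32B, so no shift of light against heavy chain was seen beyond the spread.

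TAPBP encodes tapasin, which bridges the transporter and the heavy chain and favours the binding of stable peptides. The gene (ENSG00000231925) lies on the minus strand of chromosome 6 from 33299694 to 33314284. It had 23.3 and 24.2 TPM in NC against 33 and 39.8 TPM with knockdown. The groups were separate, with means of 23.7 ± 0.604 and 36.4 ± 4.8 TPM (SD, n = 2 each) and a ratio of 1.53. The log2 fold change was 0.59 (SE 0.165, 95% interval 0.20 to 0.98, adjusted p 0.0989). Over the alternatives with all 4 samples the adjusted p lay between 0.0399, after GC correction, and 0.170. It was 0.00560 without sh-ANP32B replicate 1, 0.0463 without sh-ANP32B replicate 2 and 0.557 and 0.507 without NC replicates 1 and 2.

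The transporter genes, whose products form a pair that pumps peptides into the endoplasmic reticulum, were the least abundant members and did not share the direction of TAPBP. TAP2 (ENSG00000204267) had 4.33 and 5.43 TPM in NC against 3.31 and 3.62 TPM with knockdown. Both sh-ANP32B values were below both NC values (log2 fold change -0.39, SE 0.249, 95% interval -0.98 to 0.20, adjusted p 0.391). TAP1 (ENSG00000168394) had 3.84 and 2.41 TPM in NC against 2.82 and 3.06 TPM with knockdown. The sh-ANP32B values of TAP1 lay between those of NC (log2 fold change -0.04, SE 0.291, 95% interval -0.74 to 0.65, adjusted p 0.949), and the sign turned to 0.21 without NC replicate 1. GC correction gave -0.22 for TAP1. Without NC replicate 2 the value of TAP2 was -0.26. The ratio of TAPBP to TAP2 was 5.39 and 4.45 in NC and 9.96 and 11.0 in sh-ANP32B, a ratio of means of 2.13. With TAPBP separate upward and TAP2 separate downward, the groups had to separate in this ratio, which is no further result. TAP1 lies within the annotated span of PSMB9, on the other strand, over 8608 bases, and TAP2 within a readthrough locus on its own strand over 16907 bases. Whether reads were counted by strand is not given in the sources used here, so both values are uncertain.

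NLRC5, the activator of class I transcription, was at 10.7 and 10.1 TPM in NC against 14.7 and 13.6 TPM with knockdown. The gene (ENSG00000140853) lies on the plus strand of chromosome 16 from 56989485 to 57083531. Its replicates were close in both groups and the groups were separate, with a ratio of means of 1.36. The log2 fold change was 0.41 (SE 0.182, 95% interval -0.02 to 0.84, adjusted p 0.233). The adjusted p was between 0.224 and 0.436 over the alternatives with all 4 samples. After GC correction the log2 fold change of NLRC5 was 0.22.

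**Figure D2:**
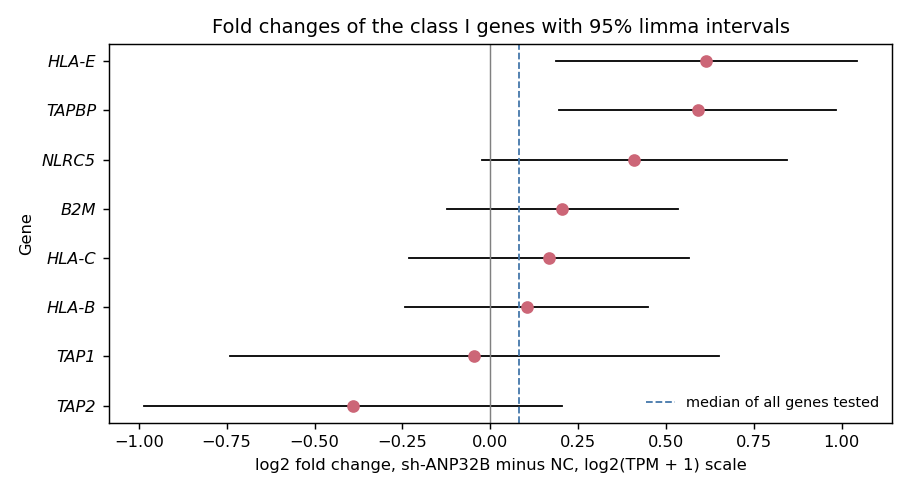
Log2 fold change of sh-ANP32B against NC for each class I gene (points) with its 95% limma interval (lines). The dashed line marks the median of all genes tested, 0.08. The intervals of HLA-E and TAPBP lie above 0, those of the other 6 include 0, and no gene had an adjusted p under 0.05 across all genes.

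The promoters of class I genes carry sites for the factors that control them together. They are shown for the members with values for which a promoter sequence was at hand. RefSeq (GRCh38.p14) gave 300 bases around the start of transcription, 250 before and 50 after it, for 7 of the 9 members. HLA-E and NLRC5 were the others. Capitals mark 3 motifs, searched on both strands: the core of the interferon-stimulated response element (ISRE), which is GAAA, any 2 bases and GAAA, the CCAAT box bound by NF-Y, and the NF-kB consensus. Capitals of different motifs can adjoin, and 2 ISRE matches can overlap.

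TAPBP (chr6:33314029-33314328, minus strand): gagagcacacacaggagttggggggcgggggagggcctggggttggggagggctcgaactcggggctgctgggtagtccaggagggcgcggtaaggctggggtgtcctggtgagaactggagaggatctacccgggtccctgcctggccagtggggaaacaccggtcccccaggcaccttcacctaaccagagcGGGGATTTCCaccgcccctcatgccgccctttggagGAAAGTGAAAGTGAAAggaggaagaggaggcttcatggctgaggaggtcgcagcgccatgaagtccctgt

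B2M (chr15:44711267-44711566, plus strand): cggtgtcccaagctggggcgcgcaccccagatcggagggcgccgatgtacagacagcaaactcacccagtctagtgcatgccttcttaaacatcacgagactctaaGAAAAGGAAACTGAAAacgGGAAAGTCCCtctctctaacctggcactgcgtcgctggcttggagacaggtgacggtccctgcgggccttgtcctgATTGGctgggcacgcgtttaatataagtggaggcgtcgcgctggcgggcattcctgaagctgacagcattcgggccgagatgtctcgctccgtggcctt

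TAP1 (chr6:32853655-32853954, minus strand): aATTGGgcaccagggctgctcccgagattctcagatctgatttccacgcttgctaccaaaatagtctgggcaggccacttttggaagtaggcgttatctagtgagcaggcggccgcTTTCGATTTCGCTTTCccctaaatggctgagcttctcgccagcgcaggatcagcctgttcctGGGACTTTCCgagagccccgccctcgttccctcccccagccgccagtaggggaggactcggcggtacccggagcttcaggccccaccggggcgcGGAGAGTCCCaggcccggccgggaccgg

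TAP2 (chr6:32838690-32838989, minus strand): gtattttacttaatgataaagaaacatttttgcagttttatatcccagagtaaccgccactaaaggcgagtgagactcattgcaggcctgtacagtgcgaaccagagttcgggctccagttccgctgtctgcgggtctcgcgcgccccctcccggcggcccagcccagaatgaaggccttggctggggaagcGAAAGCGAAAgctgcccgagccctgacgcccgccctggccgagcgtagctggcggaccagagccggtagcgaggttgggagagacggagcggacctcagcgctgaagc

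HLA-B (chr6:31357130-31357429, minus strand): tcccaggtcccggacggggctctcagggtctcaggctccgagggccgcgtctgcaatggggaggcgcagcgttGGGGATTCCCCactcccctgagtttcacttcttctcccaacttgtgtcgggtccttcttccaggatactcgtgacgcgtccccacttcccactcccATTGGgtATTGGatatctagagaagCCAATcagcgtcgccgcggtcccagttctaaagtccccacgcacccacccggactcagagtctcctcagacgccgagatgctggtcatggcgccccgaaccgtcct

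HLA-C (chr6:31272043-31272342, minus strand): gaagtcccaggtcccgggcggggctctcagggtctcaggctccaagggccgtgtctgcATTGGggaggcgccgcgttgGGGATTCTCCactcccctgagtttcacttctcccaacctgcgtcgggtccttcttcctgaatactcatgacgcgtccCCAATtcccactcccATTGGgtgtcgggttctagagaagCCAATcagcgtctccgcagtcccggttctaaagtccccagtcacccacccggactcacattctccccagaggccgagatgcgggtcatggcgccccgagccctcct

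An exact match to the ISRE core was found in TAPBP, B2M, TAP1, TAP2 and HLA-F, 5 of the 7 members. It was found in 3.57% of the 35116 RefSeq promoters of this length. Only exact matches were counted, so altered forms of the element would be missed. HLA-B and HLA-C both hold tttcacttct, which matches the core in part on the other strand, and whether it acts as an ISRE was not tested. In TAPBP, B2M and TAP1 there were 2 overlapping matches. Counted from the start of transcription, the first match began at base -20 in TAPBP, -144 in B2M, -134 in TAP1 and -58 in TAP2. An NF-kB match was found in TAPBP, B2M, TAP1, HLA-B and HLA-C, and in 5.91% of all promoters. The CCAAT box was found 3 times in HLA-B and 4 times in HLA-C, whose promoters were identical at 88.5% of aligned positions, 2 times in HLA-F, and once each in B2M and TAP1. It occurred in 34.6% of all promoters. The core TGACG of the site of CREB family factors was present in HLA-B, HLA-C, B2M and TAP2, and in 24.6% of all promoters. For TAP1 the table holds a second, downstream start, without a match to the ISRE, the CCAAT box or the NF-kB consensus. Genes with an exact match to the ISRE core included TAPBP, with a positive log2 fold change, and TAP2, with a negative one, neither past the threshold.

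**Figure D3:**
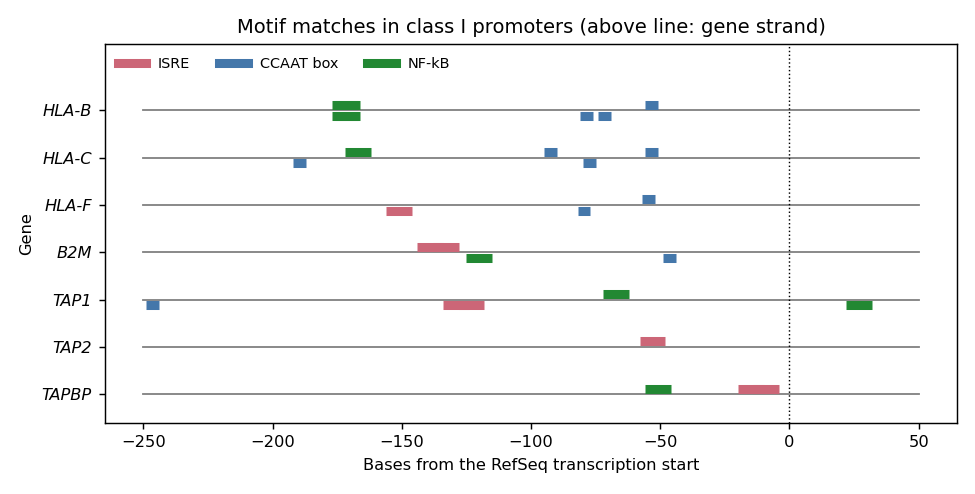
Matches to the ISRE core (red), the CCAAT box (blue) and the NF-kB consensus (green) in the promoters of the 7 members with a RefSeq promoter, by distance in bases from the start of transcription. Marks above a line are on the strand of the gene and marks below on the other strand. The ISRE lies nearest to the start in TAPBP and TAP2, and the CCAAT boxes of HLA-B and HLA-C lie between the NF-kB match and the start, except 1 of HLA-C at base -192.

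Around the members, 7 lists of 53 genes with known roles in class I presentation were followed, of which 49 were tested. An adjusted p under 0.05 was reached by 4 of these, where 3.32% of all genes were called. IRF9, STAT2 and FCGRT rose and PSMB5 fell. The median log2 fold change of the 49 genes was 0.02, beside 0.08 for all genes tested.

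Among 15 transcription factors that act on class I promoters, 2 rose and none fell, beside 2.14% and 1.18% of all genes. Their median log2 fold change of 0.09 was close to the 0.08 of all genes tested. Both that rose belong to ISGF3, the complex through which type I interferon acts on the ISRE. IRF9, its DNA-binding subunit, had 10.7 and 11.7 TPM in NC against 25.6 and 24.6 TPM with knockdown (log2 fold change 1.10, SE 0.169, adjusted p 0.0371). STAT2 had 77.2 and 71.8 TPM in NC against 137.4 and 128.1 TPM with knockdown (log2 fold change 0.83, SE 0.13, adjusted p 0.0392). In both genes the groups were widely separate and the replicates close. Without the abundance trend none of the genes of the lists or for comparison was past the threshold. Without NC replicates 1 and 2 the adjusted p was 0.114 and 0.0699 for IRF9 and 0.147 and 0.265 for STAT2. IRF1, which mediates the response to interferon gamma at class I promoters, was at 14.5 and 14.7 TPM in NC against 15.4 and 17.9 TPM with knockdown, a log2 fold change of 0.17 (adjusted p 0.614). RELA and RFXAP, a subunit of NF-kB and one of RFX, had log2 fold changes of 0.41 and -0.68, with adjusted p of 0.154 and 0.0974.

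All 7 interferon receptor and kinase genes had positive log2 fold changes, from 0.14 to 0.78, and 0 passed the threshold by limma, against 3 at an unadjusted p under 0.05, where 23.8% of all genes had such a p and 9741 of 16817 a positive log2 fold change. In 6 of the 7 both sh-ANP32B values were above both NC values, as in 33.2% of all genes. IFNGR1, a chain of the interferon gamma receptor, had 50.3 and 46 TPM in NC against 93.8 and 65.7 TPM with knockdown (log2 fold change 0.70, adjusted p 0.0987). TYK2, a kinase of the type I interferon receptor, had 131.7 and 123.1 TPM in NC against 164 and 294 TPM with knockdown (log2 fold change 0.78, adjusted p 0.137), so the sh-ANP32B replicates differed more from each other than replicate 1 did from NC.

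Of the other heavy chains and class I-like genes 5 were tested. FCGRT, the heavy chain of the neonatal Fc receptor, which pairs with B2M but binds antibody and albumin rather than peptides, rose from 103 and 117 TPM in NC to 183 and 217 TPM in sh-ANP32B (log2 fold change 0.85, SE 0.146, adjusted p 0.0435). The adjusted p was 0.0511 after median-of-ratios scaling, and 0.249 and 0.106 without NC replicates 1 and 2. MR1, which presents vitamin B metabolites, and CD1D, which presents lipids, had log2 fold changes of 0.41 and 0.38 (adjusted p 0.184 and 0.315). MICB, a ligand of NKG2D, was at 3.56 to 3.92 TPM in all samples.

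The chaperones and trimming enzymes of the loading step had no gene past the threshold by limma among the 8 tested. At an unadjusted p under 0.05 there was 1 gene, CALR, against 23.8% of all genes. The chaperone calreticulin (CALR) had 949 and 916 TPM in NC against 708 and 765 TPM with knockdown, a log2 fold change of -0.34 (adjusted p 0.154). PDIA3, its partner in folding the heavy chain, had a log2 fold change of -0.24 (adjusted p 0.265). The aminopeptidases ERAP1 and ERAP2, which trim peptides in the endoplasmic reticulum, and TAPBPL, a relative of tapasin that edits peptides, had log2 fold changes of 0.35, 0.38 and 0.35 (adjusted p 0.237, 0.34 and 0.284). The ratio of CALR to the summed HLA-B, HLA-C and HLA-E was 4.22 and 3.72 in NC and 2.71 and 2.74 in sh-ANP32B. As CALR was separate downward and the sum separate upward, the groups had to separate in this ratio, which is no further result.

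None of the 6 immunoproteasome and activator genes passed the threshold by limma, and 1, PSME2, had an unadjusted p under 0.05, against 23.8% of all genes. The catalytic subunits PSMB8 and PSMB9, which replace their constitutive counterparts after interferon, differed strongly between replicates. PSMB8 had 21.5 and 5.28 TPM in NC against 12.4 and 4.85 TPM with knockdown. PSMB9 measured 6.48 and 7.21 TPM in NC but 0.145 TPM in replicate 1 and 7.68 TPM in replicate 2 of sh-ANP32B. Both lie beside TAP1 and TAP2 in the MHC, and their log2 fold changes of -0.43 and -1.31 (SE 0.631 and 0.835) rest on these spreads. PSMB10 had 80.6 and 63.8 TPM in NC against 58.1 and 113.7 TPM with knockdown, with overlapping groups. The activator subunits PSME1 and PSME2 had log2 fold changes of -0.21 and -0.32 (adjusted p 0.402 and 0.205). Among the constitutive catalytic subunits PSMB5 fell, from 77.9 and 80.5 TPM in NC to 18.6 and 22.4 TPM in sh-ANP32B (log2 fold change -1.91, adjusted p 0.0154), while PSMB6 and PSMB7 had log2 fold changes of -0.38 and -0.14 (adjusted p 0.273 and 0.611). The ratio of PSMB8, PSMB9 and PSMB10 together to PSMB5, PSMB6 and PSMB7 together was 0.282 and 0.189 in NC and 0.276 and 0.388 in sh-ANP32B, and the groups overlapped. Of the 5 cytosolic peptidases tested, 0 passed by limma and 3 had an unadjusted p under 0.05, where 23.8% of all genes had such a p. The 3 were NPEPPS (log2 fold change 0.62, adjusted p 0.0913), THOP1 (-0.62, 0.0975) and LAP3 (-0.42, 0.144).

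**Figure D4:**
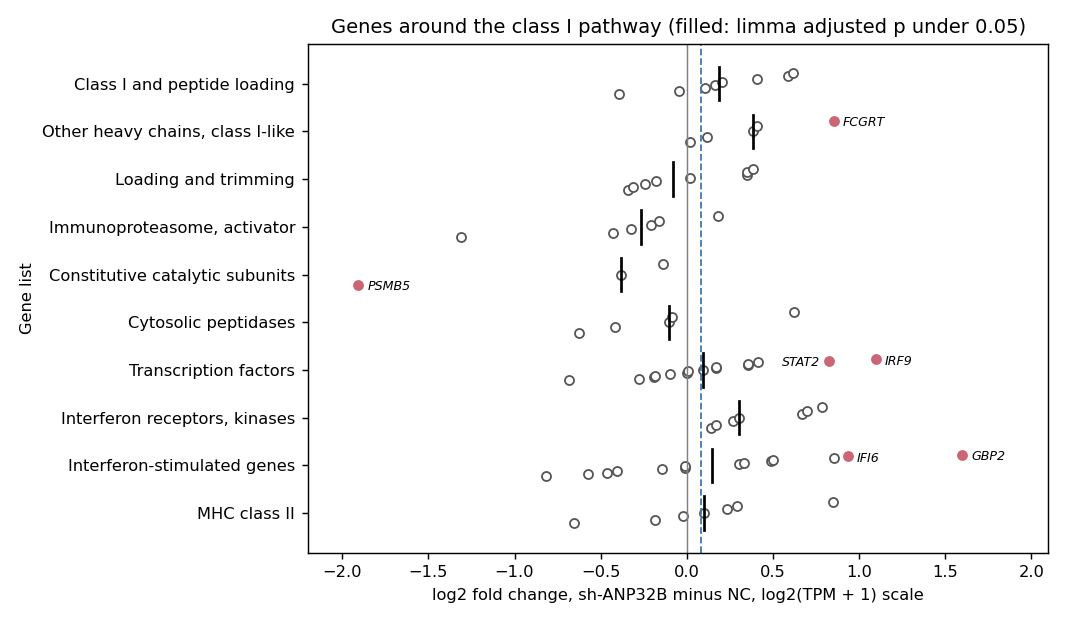
Log2 fold change of each gene tested in the class I set, the lists around it and 2 lists for comparison. Filled points had an adjusted p under 0.05 and are named, open points did not, black bars are list medians and the dashed line is the median of all genes tested. FCGRT, STAT2, IRF9, IFI6 and GBP2 rose, PSMB5 fell, and no class I gene is filled.

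Interferon-stimulated genes and MHC class II genes were set beside the class I set. Of 22 interferon-stimulated genes 14 were tested. IFI6 and GBP2 rose and none fell, beside 2.14% and 1.18% of all genes. Of the 14, 7 had positive and 7 negative log2 fold changes, with a median of 0.15, beside 0.08 for all genes. IFI6, a protein induced by type I interferon, had 127.7 and 121.2 TPM in NC against 208.9 and 272.4 TPM with knockdown (log2 fold change 0.93, adjusted p 0.0431), and GBP2, a guanylate-binding protein, had 3.004 and 1.617 TPM in NC against 10.14 and 7.643 TPM with knockdown (log2 fold change 1.60, adjusted p 0.0457). IFI6 was past the threshold in 9 and GBP2 in 6 of the 11 alternatives that kept all 4 samples. Without NC replicates 1 and 2 the adjusted p of IFI6 was 0.0818 and 0.134, and without NC replicate 2 that of GBP2 was 0.0841. Of 12 MHC class II genes 7 were tested, with a median log2 fold change of 0.10, beside 0.08 for all genes. Among the 7, 0 passed by limma and 1, HLA-DRA (-0.65, adjusted p 0.205), had an unadjusted p under 0.05, against 23.8% of all genes. The difference between these lists and the class I set was not tested.

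The mean of the centred log2 values of the 8 members was -0.09 and -0.11 in NC and 0.07 and 0.13 in sh-ANP32B. Single members departed from this mean profile by a Euclidean distance over the 4 samples of 0.234 (NLRC5) to 0.632 (TAP2). Among 9115 other genes with a mean of at least 10 TPM, the 5 nearest to the mean profile were MX2, GLRX, PI4KAP2, SPG21 and GLUL, at distances of 0.0116 to 0.0353. MX2, an interferon-induced GTPase with antiviral activity, had 168.7 and 167.7 TPM in NC against 191.8 and 198.8 TPM with knockdown (log2 fold change 0.21, adjusted p 0.331). With 4 samples in 2 groups such nearness is a description only.

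**Figure D5:**
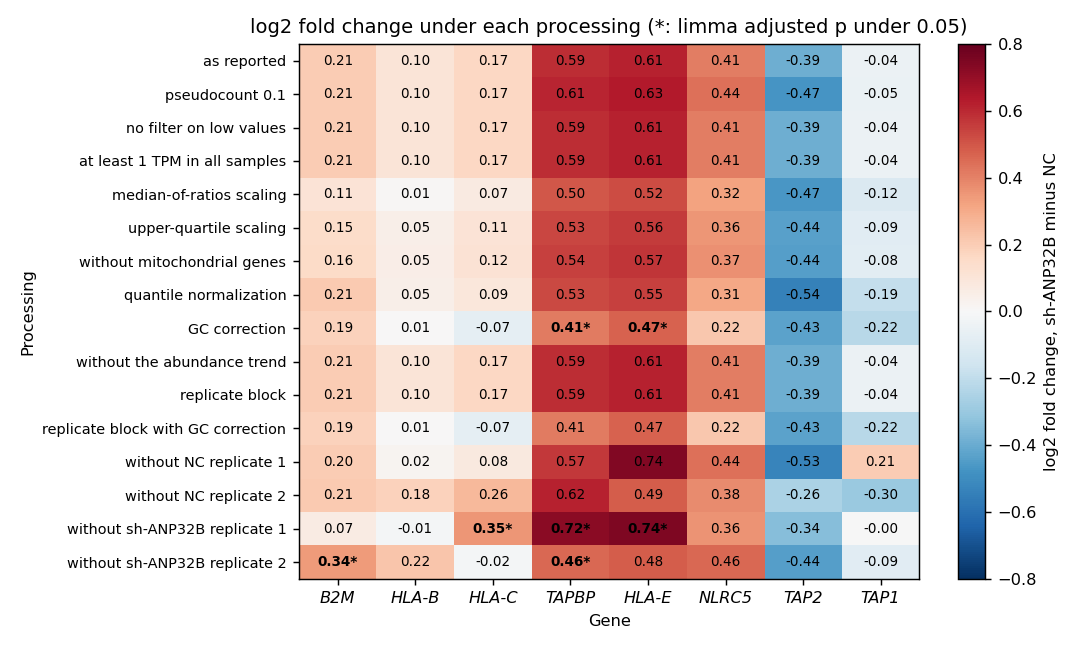
Log2 fold change of each class I gene (columns) as reported and under each other processing (rows), in figures and by color from blue (lower in sh-ANP32B) to red (higher). Bold values with a star had an adjusted p under 0.05. TAPBP, HLA-E and NLRC5 are positive and TAP2 is negative in every row, whereas the sign of HLA-B, HLA-C and TAP1 turns in some rows.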

How the data were processed

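RNA of 2 NC and 2 sh-ANP32B samples of Kasumi-1 was sequenced after TruSeq library preparation. The authors aligned reads with HISAT2 2.0.5 to hg38. The deposited values are TPM, identified as such by their decimals and sums of 997812 to 998314 per sample; the program and annotation behind them are not given in the sources used here. As TPM is relative within a sample, a shift in abundant transcripts moves all other genes, and depth is unknown.

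Of 18567 Ensembl IDs, 16986 matched GENCODE v44 (hg38), used for symbols and positions, and 1581 were not assigned. Those reaching 1 TPM in 2 or more samples (16817) were compared as log2(TPM + 1) by limma 3.58.1 with an abundance trend (R 4.3.3), two-sided, adjusted by the Benjamini-Hochberg method over all of them. Fold changes on this scale understate changes of low genes. Intervals are limma's, at 95%. The test was tested on simulated data. Members, lists and the rule for similar genes (smallest Euclidean distance of centred log2 values to the mean of the members) were chosen with earlier results of these data known. Genes named are the members, ANP32B, genes of the lists and those 5 similar genes. Some genes of the lists are not reported here.

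Alternatives were a pseudocount of 0.1, other filters and scalings, quantile normalization, GC correction by loess, no abundance trend, a replicate block, and leaving out each sample. Summed heavy chains were also rescaled, a choice made after seeing the data. Figures were drawn with Python 3.11.15 and matplotlib 3.10.9.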

Additional observations from a re-analysis of the deposited data

How the results depend on the processing

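The number of class I genes past the threshold, 0 in the report, was 2 after GC correction (HLA-E and TAPBP) and from 0 to 3 when 1 sample was left out. It was 0 under the other 10 alternatives with all 4 samples. The count over all genes, 559 as reported, became 2534 after GC correction, 1473 under the replicate block, 1806 under both, 0 without the abundance trend (3701 at an unadjusted p under 0.05) and 273 to 4079 when 1 sample was left out. The count over the 7 lists around the pathway, 4 as reported, was 13, 8, 10 and 0 under the same 4 settings and 1 to 19 when 1 sample was left out. In fits of 3 samples the lone sample is assumed to vary like the other group. The cause of these shifts was not tested.

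The log2 fold change of HLA-C turned from 0.17 to -0.069 with GC correction, with and without the replicate block. With 1 sample left out it ranged from -0.018 to 0.35, that of HLA-B from -0.013 to 0.22 and that of TAP1 from -0.30 to 0.21. HLA-E, B2M, TAP2, TAPBP and NLRC5 kept their sign in all 15 alternatives. As their groups did not overlap, a sign could turn only where values were rescaled, normalized or GC corrected. With 1 sample left out the sign was fixed in advance, which is no further result. ANP32B lost its call only without the abundance trend (adjusted p 0.0929), as did PSMB5 (0.0929). The summed HLA-B, HLA-C and HLA-E moved by less than the spread between replicates under every rescaling and with 1 sample left out. The groups share replicate numbers, which the titles give without saying what they mark, and samples with equal numbers deviated in unlike ways (Pearson r over genes of -0.0925), so the replicate block is given as an alternative only; it called 0 class I genes.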
